A study of Mus musculus with 6 samples.

Results

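The glycolysis genes are the genes of the deposited count table whose biological process annotation holds the exact term glycolysis, together with Ldha and Ldhc. They were 63 of 26743 genes, and Ldha and Ldhc carried the term already. Of the 63, 40 encode named enzymes and 23 are predicted genes, most of them described as predicted pseudogenes. Of these 23, 20 are annotated with glyceraldehyde-3-phosphate dehydrogenase activity. RNA-seq was performed on total RNA of whole testes from 3 wild type (WT) mice and 3 Trf2-/- mice, homozygous for an inactivated gene for TBP-related factor 2, all at postnatal day 21. At this age the first wave of spermatogenesis has reached the round spermatid, the early haploid germ cell. Each library was made from a different animal, and the labels give neither the strain nor the structure of the Trf2 allele.

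Glycolysis splits glucose into pyruvate in a fixed series of enzyme steps, and lactate dehydrogenase then interconverts pyruvate and lactate. Male germ cells are known for carrying their own versions of several of these enzymes. Some, such as Pgk2, Aldoart1 and Aldoart2, are intronless copies of a somatic gene, and others, such as Gapdhs, Ldhc and Eno4, are separate genes used by spermatocytes, spermatids or sperm. Sperm glycolysis takes place along the flagellum, where the product of Gapdhs is bound to the fibrous sheath.

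The starts of 3 germ cell isozymes and their somatic partners are shown because Trf2 belongs to the TBP family, which acts at transcription starts, and because these pairs carry the comparison of germ cell with somatic enzymes. Each line gives the 250 bases before a RefSeq transcript start, taken from a promoter table of build GRCm38.p6 and placed on NCBIM37, the build of the counts, by exact match. Capitals mark matches on either strand to the cyclic AMP response element TGACGTCA, to its core TGACG, which lies within it, to the TATA box letters TATAAA, to the CCAAT box and to the GC box GGGCGG.
Pgk2, chr17:40345555-40345804, minus strand: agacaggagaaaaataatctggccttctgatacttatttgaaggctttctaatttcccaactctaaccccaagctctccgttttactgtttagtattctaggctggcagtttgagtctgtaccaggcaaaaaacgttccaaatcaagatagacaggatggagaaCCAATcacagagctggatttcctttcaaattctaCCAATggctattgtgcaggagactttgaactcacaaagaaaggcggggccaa
Pgk1, chrX:103382189-103382438, plus strand: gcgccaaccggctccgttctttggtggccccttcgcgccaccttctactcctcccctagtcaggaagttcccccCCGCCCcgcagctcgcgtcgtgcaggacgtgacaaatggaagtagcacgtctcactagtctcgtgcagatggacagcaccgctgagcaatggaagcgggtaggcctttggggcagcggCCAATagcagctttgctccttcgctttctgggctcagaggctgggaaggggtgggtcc
Gapdhs, chr7:31528701-31528950, minus strand: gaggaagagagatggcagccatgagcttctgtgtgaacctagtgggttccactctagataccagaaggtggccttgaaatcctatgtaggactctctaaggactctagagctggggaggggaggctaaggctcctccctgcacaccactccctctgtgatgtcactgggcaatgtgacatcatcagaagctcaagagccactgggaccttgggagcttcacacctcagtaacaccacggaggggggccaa
Gapdh, chr6:125115792-125116041, minus strand: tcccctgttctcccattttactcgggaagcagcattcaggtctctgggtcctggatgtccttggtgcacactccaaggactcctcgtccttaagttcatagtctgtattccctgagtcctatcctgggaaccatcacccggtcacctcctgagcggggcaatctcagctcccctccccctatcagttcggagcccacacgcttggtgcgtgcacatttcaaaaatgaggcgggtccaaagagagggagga
Ldhc, chr7:54116383-54116632, plus strand: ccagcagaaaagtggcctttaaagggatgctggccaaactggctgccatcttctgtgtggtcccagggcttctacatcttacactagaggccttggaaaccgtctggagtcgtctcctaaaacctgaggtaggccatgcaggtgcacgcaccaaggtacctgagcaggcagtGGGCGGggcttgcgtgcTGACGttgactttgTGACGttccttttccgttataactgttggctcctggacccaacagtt
Ldha, chr7:54100924-54101173, plus strand: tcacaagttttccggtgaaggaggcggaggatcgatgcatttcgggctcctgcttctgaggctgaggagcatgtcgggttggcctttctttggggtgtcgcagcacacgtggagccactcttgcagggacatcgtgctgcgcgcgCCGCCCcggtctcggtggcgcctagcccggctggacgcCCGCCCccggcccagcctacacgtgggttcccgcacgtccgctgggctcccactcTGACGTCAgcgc

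The Pgk2 window held CCAAT boxes beginning 86 and 52 bases before the start, and the Pgk1 window held a GC box at 176 and a CCAAT box at 58. In the Ldhc window a GC box at 78 was followed by TGACG at 61 and 47 bases before the start. The Ldha window held GC boxes at 105 and 67 and the full response element at 12. Neither the Gapdhs nor the Gapdh window held any of these letters. Pgk2 had a GC content of 42.0% and 3 CpG dinucleotides, against 62.8% and 17 for Pgk1, while Gapdhs had 54.8% and 1 CpG, against 55.6% and 8 for Gapdh. Ldhc had 54.4% and 8 CpG, and Ldha 67.2% and 25, where the median over all 32851 promoters was 52.4% and 6.

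In all, 37 of the 40 enzyme genes had an entry in the promoter table, with 58 promoters. TGACGTCA was found in 4 of these 58 and in 1.55% of all promoters, TGACG in 14 and in 17.8%, TATAAA in 3 and in 12.4%, CCAAT in 22 and in 33.8%, and GGGCGG in 20 and in 32.7%. Alternative starts of 1 gene count separately here. The 4 promoters with TGACGTCA belong to 2 genes, Ogdh with 3 and Ldha with 1, and the 14 with TGACG belong to 9 genes, 5 of them starts of Ogdh. The RefSeq start of Ldha lies 4329 bases downstream of the gene start in the annotation of the counts, that of Gapdh 694 bases and that of Ldhc 60 bases, whereas those of Pgk2, Pgk1 and Gapdhs coincide with it. These are the starts of the windows shown. The table holds a second start for Gapdhs, Ldhc and Ldha, at 4274, 284 and 5607 bases downstream of the annotated gene start, whose windows are not shown. Ldha and Ldhc are neighbours on the same strand of chromosome 7, with 5575 bases between them.

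The WT libraries held 21582123 to 29859347 counts on genes, and the Trf2-/- libraries held 15187062 to 24530489. Tbpl1, the gene that encodes Trf2, had 8840, 7391 and 6119 counts in WT and 1586, 1500 and 882 counts in Trf2-/- mice, a log2 fold change of -2.27 (SE 0.06, adjusted p = 1.18e-06), so that the labels and this gene went the same way. Levels are given as raw counts or as CPM, the counts scaled to a common library size by TMM, a factor that balances RNA composition, and fold changes are Trf2-/- over WT. A gene was called down or up at an adjusted p under 0.05 and a change of at least 2-fold. Over all 16924 genes tested, 4.3% were called down and 0.609% up. In whole testis, fewer cells of a type and less RNA per cell cannot be told apart.

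Of the 40 glycolysis genes tested, 5 were called down (12.5%, against 4.3% of all tested genes) and none up. These were Gapdhs, Aldoart1, Aldoart2, Pgk2 and Pfkp. Without the 2-fold limit, 14 were lower at an adjusted p under 0.05 (35.0%, against 20.2%) and 4 were higher (10.0%, against 11.2%). With scaling by library size alone these counts were 13 lower and 13 higher, beside 2691 lower and 4267 higher over all genes, so the balance of directions depends on the scaling. All Trf2-/- mice lay below all WT mice for 15 genes (37.5%, against 26.8%) and above them for 11 (27.5%, against 22.3%). The median log2 fold change of the glycolysis genes was -0.02, with 21 below 0 and 19 above, and that of all tested genes was 0.04. The median thus stayed near 0 with genes moving both ways, and single genes ranged from -3.99 for Gapdhs to 0.47 for Eno2 (adjusted p = 0.182). Gapdhs and Aldoart1 passed the filter on low counts through the WT mice alone, so their place among the genes tested rests on the group in which they were high.

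**Figure D1:**
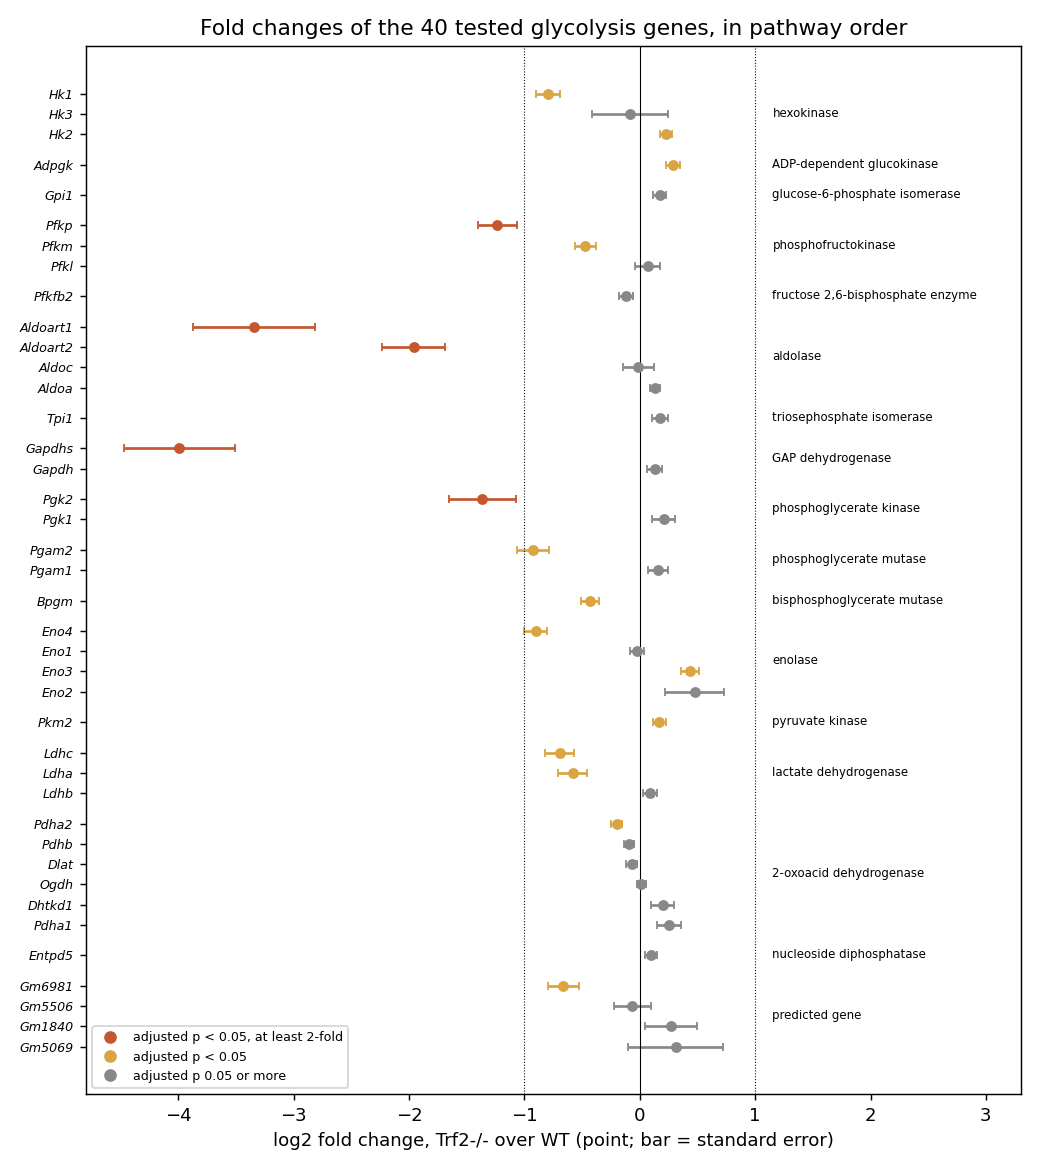
Log2 fold change, Trf2-/- over WT, of the 40 glycolysis genes tested, ordered by step of the pathway. Points are edgeR estimates from 3 mice per genotype, bars are 1 standard error and dotted lines mark 2-fold. The 5 genes called down lie left of the line at -1, from Pfkp at -1.23 to Gapdhs at -3.99, and no gene lies right of the line at 1.

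The germ cell isozymes moved in 1 direction, though Gapdhs and Aldoart1 were tested only because their WT counts were high. The list of these isozymes was chosen with earlier results of these data known. Of 7 genes listed as germ cell isozymes, 6 were measured (Ldhal6b was not analysed here). All 6 were lower at an adjusted p under 0.05 (100%, against 20.2% of all tested genes), with a median log2 fold change of -1.66. Of these, 4 were called down (66.7%, against 4.3% of all tested genes). For each of the 6, every Trf2-/- mouse lay below every WT mouse, which held for 26.8% of all tested genes. Of the somatic partners, Pgk1, Gapdh and Aldoa did not pass the test, with log2 fold changes from 0.13 to 0.21, and Ldha was lower. With scaling by library size alone, which moved the median of all genes from 0.04 to 0.13, those of Gapdh (0.22, adjusted p = 0.0326), Aldoa (0.22, adjusted p = 0.00615) and Pgk1 (0.30, adjusted p = 0.0429) passed as higher.

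**Figure D2:**
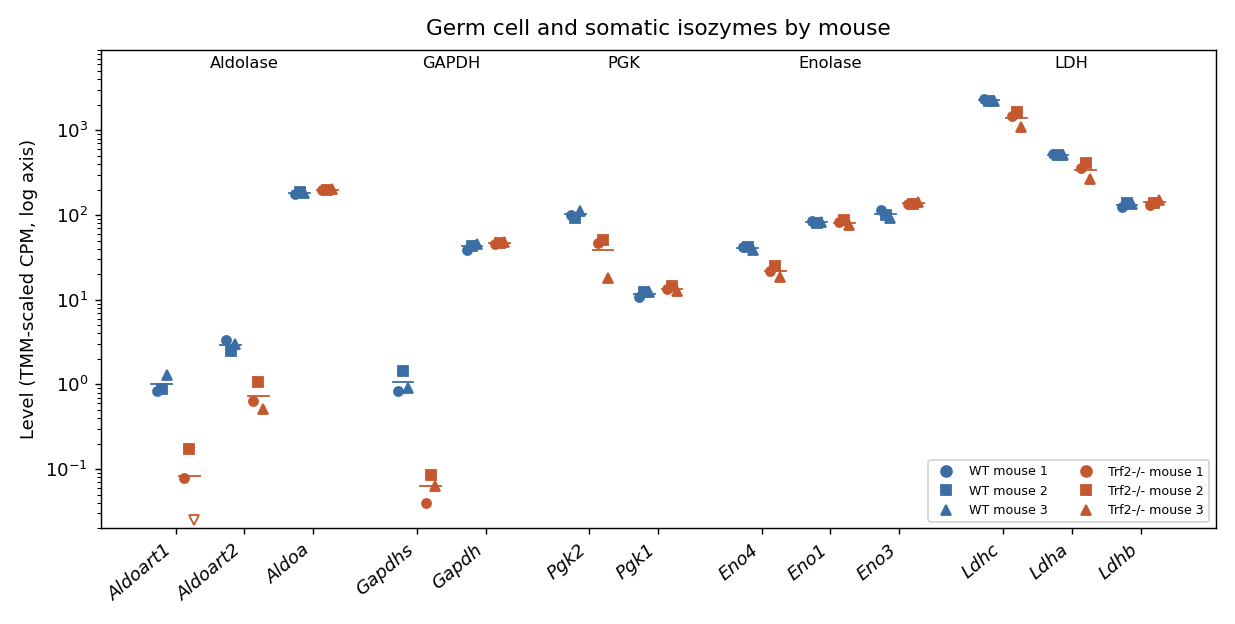
Level of germ cell and somatic isozymes at 5 steps, in TMM-scaled CPM on a log axis, for each of the 3 WT and 3 Trf2-/- mice. Lines are group means and the open triangle at the lower edge is a mouse with 0 counts. The Trf2-/- mice lie below the WT mice for Aldoart1, Aldoart2, Gapdhs, Pgk2, Eno4, Ldhc and Ldha. For Gapdh and Aldoa the groups lie close together, with the Trf2-/- mice slightly higher.

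Gapdhs, the sperm form of glyceraldehyde-3-phosphate dehydrogenase (ENSMUSG00000061099, chr7:31514799-31528700), had 24, 38 and 19 counts in WT and 1, 2 and 1 counts in Trf2-/- mice. Its level was 1.07 ± 0.338 CPM in WT and 0.0629 ± 0.0230 CPM in Trf2-/- mice (SD, n = 3 each), and all 3 Trf2-/- values lay under the level of 3 counts. The fitted log2 fold change was -3.99 (SE 0.48, adjusted p = 0.000707). From the summed counts, 81 in WT and 4 in Trf2-/- mice, the level was 17.2-fold lower, with an exact 95% interval of 6.47 to 64.7 that covers counting error only. Gapdh (ENSMUSG00000057666, chr6:125111871-125116485), the somatic enzyme, had 1121, 1138 and 943 counts in WT and 1148, 1076 and 759 counts in Trf2-/- mice. Scaled to depth, this was 42.6 ± 3.20 CPM and 46.6 ± 1.27 CPM, a log2 fold change of 0.13 (SE 0.07, adjusted p = 0.176). Gapdhs thus made up 2.44 ± 0.695% of the CPM per kb of the pair in WT and 0.135 ± 0.0494% in Trf2-/- mice.

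Aldoart1 and Aldoart2 are germ cell copies of aldolase A, the enzyme that cleaves fructose 1,6-bisphosphate, and each is a single exon. Aldoart1 (ENSMUSG00000059343, chr4:72511755-72513668) had 24, 23 and 27 counts in WT and 2, 4 and 0 counts in Trf2-/- mice. Its log2 fold change was -3.34 (SE 0.53, adjusted p = 0.00193), and its summed counts of 74 and 6 correspond to a level 10.5-fold lower (exact 95% interval 4.60 to 29.5). Both groups were far apart, but the level was low, at 1.004 ± 0.253 CPM in WT. Aldoart2 (ENSMUSG00000063129, chr12:56666226-56667883) had 97, 65 and 62 counts in WT and 16, 25 and 8 in Trf2-/- mice. It fell from 2.95 ± 0.446 to 0.738 ± 0.297 CPM, a log2 fold change of -1.96 (SE 0.27, adjusted p = 0.00116). The parent gene Aldoa (ENSMUSG00000030695, chr7:133938748-133944265) stood at 181 ± 5.04 CPM in WT and 198 ± 3.90 CPM in Trf2-/- mice, with a log2 fold change of 0.13 (SE 0.04, adjusted p = 0.0509). Aldoa accounted for 94.6 ± 0.244% of aldolase CPM per kb in WT and 96.9 ± 0.312% in Trf2-/- mice, so the germ cell copies were a small share of the step in both genotypes. Aldoc, the brain form, did not pass the test (log2 fold change -0.01, adjusted p = 0.944).

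Pgk2 (ENSMUSG00000031233, chr17:40343963-40345554) is an autosomal, single-exon copy of X-linked Pgk1 and takes over the phosphoglycerate kinase step, the first to yield ATP, when the X chromosome is silenced in meiosis. It had 2854, 2416 and 2353 counts in WT and 1192, 1191 and 285 counts in Trf2-/- mice. The groups did not overlap, and Trf2-/- mouse 3 was far below the other two. The mean level was 102 ± 10.3 CPM in WT and 38.8 ± 18.1 CPM in Trf2-/- mice, a log2 fold change of -1.37 (SE 0.29, adjusted p = 0.00763), which was -1.04 without Trf2-/- mouse 3. Pgk1 (ENSMUSG00000062070, chrX:103382439-103399038) had 309, 323 and 255 counts in WT and 335, 342 and 201 counts in Trf2-/- mice. Its levels of 11.8 ± 0.889 and 13.6 ± 1.01 CPM gave a log2 fold change of 0.21 (SE 0.10, adjusted p = 0.150). Pgk2 supplied 90.9 ± 1.03% of the phosphoglycerate kinase CPM per kb in WT mice. Its share was 80.7, 80.3 and 62.4% in the 3 Trf2-/- mice.

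Ldhc (ENSMUSG00000030851, chr7:54116573-54133512), the lactate dehydrogenase subunit made mainly in male germ cells, had the highest level per kb of the glycolysis genes in WT, at 1443 ± 45.5 CPM per kb. It had 67796, 58450 and 46625 counts in WT and 37225, 38632 and 17179 counts in Trf2-/- mice. The drop was from 2279 ± 72.0 to 1407 ± 292 CPM, a log2 fold change of -0.70 (SE 0.13, adjusted p = 0.00384). Its neighbour Ldha (ENSMUSG00000063229, chr7:54096845-54110997), the widely expressed A subunit, had 14958, 13327 and 10674 counts in WT and 8942, 9563 and 4223 counts in Trf2-/- mice. Ldha fell from 515 ± 5.81 to 344 ± 72.2 CPM, a log2 fold change of -0.58 (SE 0.13, adjusted p = 0.00852). For both genes every Trf2-/- mouse was below every WT mouse, with mouse 3 the lowest. Ldhb, the heart-type subunit, had 133 ± 6.96 CPM in WT and 142 ± 9.59 CPM in Trf2-/- mice, with a log2 fold change of 0.09 (adjusted p = 0.296). The lactate dehydrogenase step therefore held 83.2% Ldhc, 11.9% Ldha and 4.89% Ldhb per kb in WT, and 79.4%, 12.3% and 8.32% in Trf2-/- mice.

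The balance between germ cell and somatic isozymes was taken within each mouse as the log2 ratio of their CPM per kb, which does not depend on how libraries are scaled. The Pgk2 to Pgk1 ratio was 3.33 ± 0.18 in WT and 1.61 ± 0.76 in Trf2-/- mice, a difference of -1.73, or from 10.1-fold to 3.05-fold on the linear scale. The Gapdhs to Gapdh ratio went from -5.36 ± 0.40 to -9.60 ± 0.55, a difference of -4.24, and the Aldoart2 to Aldoa ratio from -5.51 ± 0.26 to -7.70 ± 0.57, a difference of -2.19. The Ldhc to Ldha ratio moved from 2.80 ± 0.03 to 2.69 ± 0.02, a difference of -0.11, or from 6.98-fold to 6.45-fold. In each of these 4 pairs the groups did not overlap, and the two-sided exact permutation test gave p = 0.1, the smallest value that 3 against 3 mice allow, so p under 0.05 could not be reached. The Aldoart1 to Aldoa ratio, computed with 1 count added because a mouse had 0, differed by -3.26 (exact p = 0.1). Without Trf2-/- mouse 3 the Pgk2 to Pgk1 difference was -1.29 and the Gapdhs to Gapdh difference -4.26.

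Some exon sequence of the somatic isozymes recurs at other loci. Over 50-base windows, the read length, 31.7% of Pgk1 exon windows and 49.8% of Gapdh windows occur once in the genome, and for Pgam1 the share is 8.87%, whereas Pgk2, Ldhc, Pgam2, Pfkp and Eno4 are at 100%, Aldoart2 at 99.7%, Aldoart1 at 94.6%, Gapdhs at 90.8% and Ldha at 83.0%. How reads with several matches were counted is not given in the sources used here. If only windows that occur once could be counted, the WT ratio of Pgk2 to Pgk1 would be 3.02-fold in place of 10.1-fold. The same factor applies to every mouse, so this rescaling cannot change the difference between genotypes and is no check on it. All 5 genes called down had over 90% of their windows unique. Levels and shares of Pgk1, Gapdh and Pgam1 are uncertain for this reason. To a lesser degree the same holds for Pkm2, Pdhb, Ldhb and Eno1, with 59.8%, 65.9%, 73.3% and 79.3% of their windows unique.

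**Figure D3:**
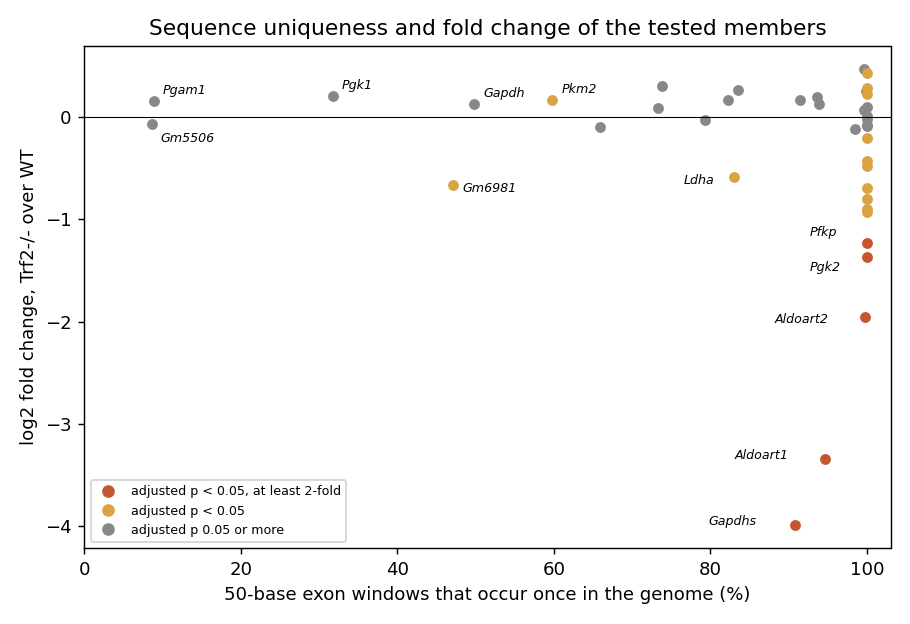
Log2 fold change, Trf2-/- over WT, against the percent of 50-base exon windows that occur once in the genome, for the 40 glycolysis genes tested. The 5 genes called down sit at 90.8% or more. The lowest shares belong to Gm5506 at 8.62% and Pgam1 at 8.87%.

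At the first steps of the pathway the isozymes of 1 enzyme differed from each other. Hk1, the widely expressed hexokinase, had 2349, 2239 and 1772 counts in WT and 1238, 1313 and 624 counts in Trf2-/- mice. It fell from 84.2 ± 2.07 to 48.3 ± 8.46 CPM, a log2 fold change of -0.80 (SE 0.11, adjusted p = 0.00104). Hk2, the insulin-responsive form and the hexokinase with the highest level per kb, had 2943, 2648 and 2174 counts in WT and 2967, 2678 and 2034 counts in Trf2-/- mice, and rose by a log2 fold change of 0.23 (SE 0.05, adjusted p = 0.0119), which did not pass without WT mouse 2 (0.22, adjusted p = 0.0573). Hk2 thus went from 55.1 ± 0.710% to 71.0 ± 5.16% of hexokinase CPM per kb, and Hk1 from 43.1 ± 0.703% to 27.2 ± 4.38%. Hk3 did not pass (log2 fold change -0.08, adjusted p = 0.869). Adpgk, a glucokinase that uses ADP, rose from 22.9 ± 0.289 to 28.0 ± 0.471 CPM (log2 fold change 0.29, SE 0.06, adjusted p = 0.00647). Gpi1, the isomerase of the next step, stood at 58.6 ± 0.719 and 66.1 ± 4.05 CPM (log2 fold change 0.17, SE 0.06, adjusted p = 0.0506).

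Pfkp (ENSMUSG00000021196, chr13:6579014-6648023), the platelet form of phosphofructokinase, was the only gene called down that is not among the listed germ cell isozymes. It had 4780, 3880 and 3361 counts in WT and 1792, 1945 and 740 counts in Trf2-/- mice. This was a drop from 159 ± 9.22 to 67.1 ± 18.6 CPM, a log2 fold change of -1.23 (SE 0.17, adjusted p = 0.00103), with mouse 3 the lowest. Pfkm, the muscle form and the one with the highest level per kb, had 180 ± 7.98 CPM in WT and 130 ± 18.8 CPM in Trf2-/- mice, and fell by a log2 fold change of -0.47 (SE 0.09, adjusted p = 0.00532). Pfkl, the liver form, had 59.9 ± 5.75 and 62.9 ± 8.82 CPM and overlapped between the groups (log2 fold change 0.07, adjusted p = 0.662). Of phosphofructokinase CPM per kb, Pfkp supplied 31.4 ± 1.36% in WT and 19.4 ± 3.22% in Trf2-/- mice, and Pfkl 14.4 ± 1.56% and 22.7 ± 4.34%. Pfkp shares 372 exon bases with Pitrm1 on the opposite strand, Hk1 157 with 2210417K05Rik and Gpi1 741 with Gm17327, and whether strand was used in counting is not given. Pfkfb2, which makes and breaks down the phosphofructokinase activator fructose 2,6-bisphosphate, did not pass the test (log2 fold change -0.12, adjusted p = 0.173).

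**Figure D4:**
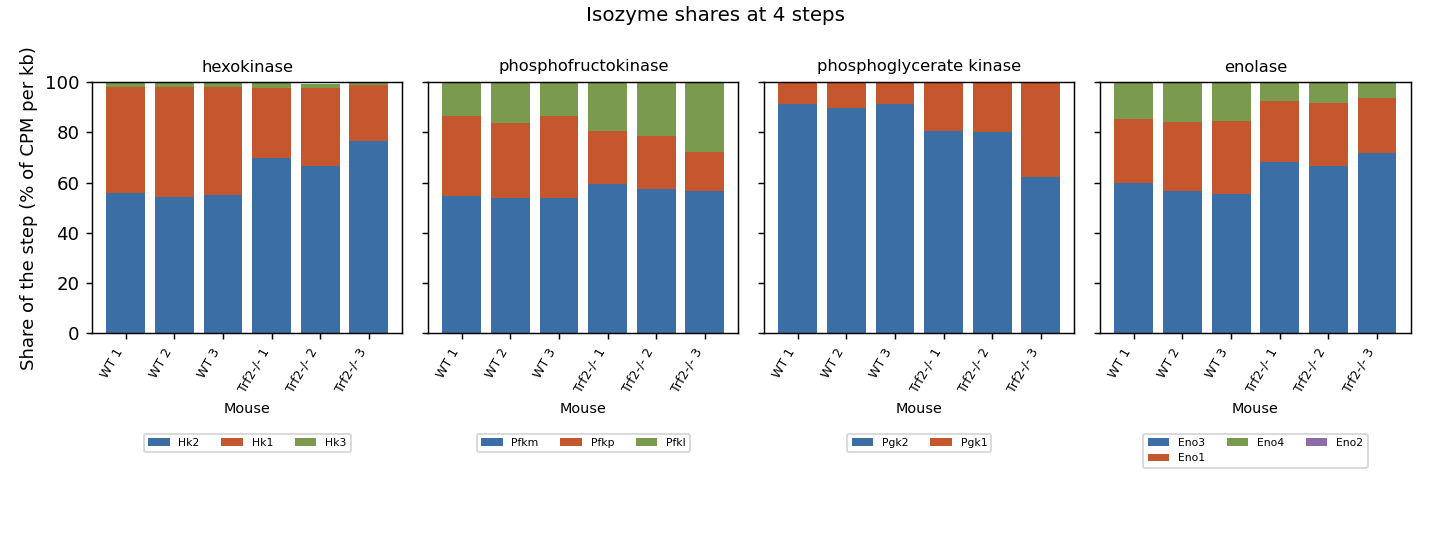
Share of each isozyme in the CPM per kb of its step, in percent, for each mouse. From WT to Trf2-/- mice the mean share of Hk1 went from 43.1% to 27.2%, that of Pfkp from 31.4% to 19.4%, that of Pgk2 from 90.9% to 74.5% and that of Eno4 from 15.1% to 7.12%. Isozymes that were not tested are not drawn, and Eno2 is too small to be seen.

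In the lower pathway, Tpi1, which interconverts the triose phosphates, had 51.0 ± 0.663 CPM in WT and 57.5 ± 4.99 CPM in Trf2-/- mice (log2 fold change 0.17, adjusted p = 0.0828). Pgam2, the muscle form of phosphoglycerate mutase, which the testis also expresses, had 7342, 7045 and 5706 counts in WT and 3527, 4030 and 1687 counts in Trf2-/- mice. It fell from 266 ± 9.42 to 140 ± 33.1 CPM, a log2 fold change of -0.93 (SE 0.14, adjusted p = 0.00159), just short of 2-fold. Pgam1 had 13.0 ± 0.393 and 14.5 ± 0.739 CPM (log2 fold change 0.16, adjusted p = 0.193). Bpgm, which makes 2,3-bisphosphoglycerate, fell from 69.3 ± 2.63 to 51.3 ± 5.55 CPM (log2 fold change -0.43, SE 0.08, adjusted p = 0.00380).

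Eno4, the sperm enolase, had 1208, 1086 and 816 counts in WT and 553, 584 and 292 counts in Trf2-/- mice. It fell from 40.9 ± 1.58 to 21.8 ± 3.29 CPM, a log2 fold change of -0.90 (SE 0.10, adjusted p = 0.000530), and its share of enolase CPM per kb went from 15.1 ± 0.692% to 7.12 ± 1.01%. Eno3, the muscle enolase, had the highest level per kb of the 4 enolases. It rose from 102 ± 11.7 to 139 ± 4.89 CPM (log2 fold change 0.44, SE 0.08, adjusted p = 0.00323), the largest rise among the glycolysis genes that passed the test. Eno1, the widespread form, overlapped between the groups (log2 fold change -0.03, adjusted p = 0.758). Pkm2, which encodes pyruvate kinase of muscle and most other tissues, had 154 ± 5.58 and 174 ± 9.08 CPM (log2 fold change 0.17, SE 0.05, adjusted p = 0.0386). It no longer passed in 5 of the 6 fits that left out 1 mouse, with adjusted p up to 0.144.

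Of the members, 6 are subunits of the complexes that decarboxylate 2-oxoacids, and 1 of the 6 passed the test, as lower. That is near the share of all tested genes that were lower, 20.2%. Pdha2, the autosomal germ cell copy of the E1 alpha subunit of pyruvate dehydrogenase, had 7552, 6852 and 5461 counts in WT and 5841, 5537 and 3424 counts in Trf2-/- mice. It fell by a log2 fold change of -0.20 (SE 0.05, adjusted p = 0.0122), from 263 ± 0.587 to 229 ± 10.9 CPM, and no longer passed with scaling by library size alone (-0.10, adjusted p = 0.0888). X-linked Pdha1 had 24.5 ± 2.90 and 29.0 ± 2.80 CPM (log2 fold change 0.25, adjusted p = 0.0924) and shares 603 exon bases with Map3k15 on the opposite strand. The log2 ratio of Pdha2 to Pdha1 went from 3.90 ± 0.18 to 3.45 ± 0.12, a difference of -0.45 (exact p = 0.1). Dlat, Pdhb, Ogdh and Dhtkd1 had log2 fold changes between -0.09 and 0.20 and did not pass. Entpd5, a nucleoside diphosphatase of the endoplasmic reticulum, did not pass either (log2 fold change 0.10, adjusted p = 0.185).

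The 23 predicted genes added little signal. Of these, 18 had at most 10 counts over the 6 mice, and 4 passed the filter on low counts. Gm6981, described as a predicted pseudogene, had 269, 241 and 203 counts in WT and 129, 165 and 90 counts in Trf2-/- mice. It was lower by a log2 fold change of -0.66 (SE 0.14, adjusted p = 0.00656), with 47.1% of its windows unique. Gm5506, Gm1840 and Gm5069 did not pass, with log2 fold changes between -0.06 and 0.31. Together with 4 enzyme genes, the 19 predicted genes under the filter make up the 23 members that were not tested, each of which had at most 9 counts in any mouse. Among the 36 tested enzyme genes alone, 5 were called down (13.9%, against 4.3% of all tested genes). These include Aldoart1 and Gapdhs, which passed the filter on low counts through the WT mice alone. At an adjusted p under 0.05, 13 of the 36 were lower (36.1%, against 20.2%) and 4 higher (11.1%, near the 11.2% of all tested genes).

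Trf2-/- mouse 3 stood apart from the other two. It had the lowest level of the Trf2-/- mice for 4 of the 5 glycolysis genes called down and for 609 of all 727 genes called down (83.8%), against 37.7% of all tested genes and 18 of the 35 glycolysis genes tested and not called. Its library was also the smallest. Without it the 5 genes called down were the same, 14 glycolysis genes were lower and 5 higher.

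Markers of round spermatids and of pachytene spermatocytes were also lower in Trf2-/- mice. The summed level of 11 round spermatid markers was 25.9 to 28.9 CPM in the WT mice against 9.80 to 13.7 CPM in the Trf2-/- mice. Tssk1, Spaca1 and Gsg1 made up most of this sum in WT (7.35, 7.13 and 5.30 CPM). Of the 11, 9 were called down (81.8%, against 4.3% of all tested genes), but 7 of these 9 passed the filter on low counts through the WT mice alone, and only Gsg1 and Tssk1 did not. Acrv1 and Spaca3, which encode acrosomal proteins, had log2 fold changes of -4.27 (adjusted p = 0.000678) and -4.56 (adjusted p = 0.000971), and Spaca7, Catsper4, Tssk2, Catsper3, Gsg1, Izumo1 and Tssk1 lay between -5.00 and -1.41. Of these, Spaca7, Acrv1, Spaca3 and Catsper4 had at most 3 counts in any Trf2-/- mouse, so their fitted values depend on the prior count. Spaca1 and Tssk6 were not called. Spaca1 had 216, 188 and 139 counts in WT and 163, 153 and 83 counts in Trf2-/- mice (log2 fold change -0.22, adjusted p = 0.217). Tssk6 had 18, 18 and 10 counts in WT and 9, 14 and 6 counts in Trf2-/- mice (log2 fold change -0.42, adjusted p = 0.346). It also passed the filter on low counts through the WT mice alone. Of 11 pachytene spermatocyte markers, 9 were lower (81.8%, against 20.2% of all tested genes) and 1 higher (9.09%, against 11.2%), with a median of -0.34. The higher one was Sycp3 (0.24, adjusted p = 0.00426), and Hist1h1t did not pass (-0.09, adjusted p = 0.181). Of the 9, 3 were called down (27.3% of the 11, against 4.3% of all tested genes). They were Ccna1 at -1.63 (adjusted p = 0.00362), Adam3 at -1.26 (adjusted p = 0.00142) and Adam2 at -1.06 (adjusted p = 0.000282). The other lower markers lay between -0.47 for Ybx2 and -0.16 for Mybl1. The sum of the 11 pachytene markers was 6368 to 6862 CPM in the WT mice against 4860 to 5424 CPM in the Trf2-/- mice.

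Of the markers of the other cell types, none passed the test as lower, and their counts of higher genes are read against 11.2% of all tested genes. Spermatogonial markers had 1 of 9 higher (11.1%, median log2 fold change 0.09), with sums of 321 to 348 CPM in WT and 334 to 431 CPM in Trf2-/- mice. Of 8 Sertoli cell markers, 4 were higher (50.0%, median 0.21), with sums of 1473 to 1618 CPM in WT and 1723 to 1921 CPM in Trf2-/- mice. Most of the WT sum came from Clu, at 1094 CPM. Leydig cell markers had 1 of 7 higher (14.3%) and peritubular markers 1 of 5 (20%), both with a median of 0.22 and with sums that overlapped between the groups. Macrophage markers had 3 of 6 higher (50.0%, median 0.66), 1 of them called up, with sums of 143 to 166 CPM in WT and 162 to 321 CPM in Trf2-/- mice, the highest in mouse 1. This was Lyz2 (log2 fold change 1.36, adjusted p = 0.0203). None of the 5 erythroid markers tested passed. No marker was at 0 in all mice. The part of these cell types in the levels of the glycolysis genes was not tested.

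**Figure D5:**
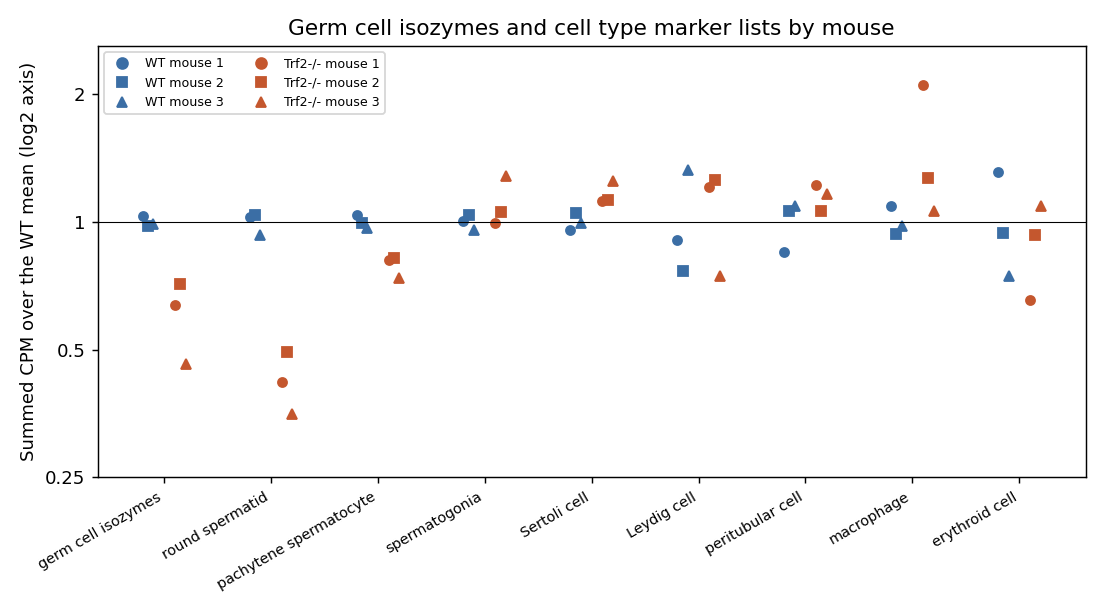
Summed CPM of the germ cell isozymes and of each marker list in each mouse, over the WT mean of that list, on a log2 axis. The round spermatid sums of the Trf2-/- mice (9.80 to 13.7 CPM) and the germ cell isozyme sums lie below those of all WT mice, and the Sertoli cell sums (1723 to 1921 CPM) lie above. A sum mostly shows its most abundant genes. In WT these were Ldhc (2279 CPM) for the isozymes and Clu (1094 CPM) for Sertoli cells. For round spermatids they were Tssk1, Spaca1 and Gsg1 (7.35, 7.13 and 5.30 CPM).

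Glycerol enters glycolysis through glycerol kinase and glycerol 3-phosphate dehydrogenase. Of 7 such genes, 3 were lower (42.9%, against 20.2% of all tested genes) and 1 higher (14.3%, against 11.2%), with a median of 0.04. The 2 called down (28.6%, against 4.3%) both encode testis-specific glycerol kinases. Gk2 had 13189, 11446 and 9467 counts in WT and 5799, 6002 and 2514 counts in Trf2-/- mice, a log2 fold change of -1.06 (SE 0.14, adjusted p = 0.00104). Gykl1 had 5539, 4833 and 4132 counts in WT and 2648, 2581 and 1096 counts in Trf2-/- mice, a log2 fold change of -1.01 (SE 0.14, adjusted p = 0.00125). Gyk, the X-linked somatic glycerol kinase, did not pass (log2 fold change 0.04, adjusted p = 0.801). Gpd2, the mitochondrial glycerol 3-phosphate dehydrogenase, was lower (-0.86, adjusted p = 0.000464), and Gpd1, the cytosolic one, was higher (0.31, adjusted p = 0.0237).

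Of the 5 enzymes that set fructose 2,6-bisphosphate (median log2 fold change -0.12, with 1 lower and 1 higher, each 20%, against 20.2% and 11.2% of all tested genes), Pfkfb4, the testis form, was lower (log2 fold change -0.69, adjusted p = 0.00101) and Pfkfb3 was higher (0.21, adjusted p = 0.0251). Of 14 genes for the entry of pyruvate into mitochondria, 3 were lower (21.4%, close to the 20.2% of all tested genes) and none higher (median -0.02). They were Pdk2, a kinase that switches off pyruvate dehydrogenase (-0.96, adjusted p = 0.000764), Brp44, a subunit of the mitochondrial pyruvate carrier (-0.21, adjusted p = 0.0451), and Pdha2. Of 5 gluconeogenesis genes tested (median 0.02, none higher and 40% lower, against 20.2% of all tested genes), Fbp1, which removes a phosphate from fructose 1,6-bisphosphate, was lower (-0.79, adjusted p = 0.00208), as was G6pc3 (-0.27, adjusted p = 0.0128). Of 10 pentose phosphate genes tested, none was lower and 2 were higher (20%, against 11.2% of all tested genes, median 0.18), G6pdx, which starts the pathway (0.28, adjusted p = 0.0277), and Pgd (0.17, adjusted p = 0.0350). G6pd2, the autosomal copy of G6pdx, had at most 3 counts in any mouse and was not tested.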

How the data were processed

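RNA-seq libraries of testis RNA were made with a stranded total RNA kit after ribosomal depletion and sequenced as single-end 50 base reads. The authors aligned the reads to mm9 (NCBIM37) and deposited raw counts per gene, with gene length and annotation. The submitters' processing notes name CASAVA 1.8.2, TopHat2 2.0.10, Bowtie2 2.1.0, HTSeq 0.5.4p3 and DESeq2 1.0.19. The treatment of strand and of multiply matching reads and the annotation release are not given in the sources used here, although the coordinates of all 63 genes equal those of GENCODE's NCBIM37 release. The table's 12 further columns of normalized values per mouse were not used. Count columns were assigned to mice by genotype and replicate number.

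Counts were tested with edgeR 4.0.16 in R 4.3.3 (filterByExpr, TMM, glmQLFit, glmQLFTest), with Benjamini-Hochberg adjustment over the 16924 genes tested. The standard error was derived from the log2 fold change and the F statistic. Fitted fold changes of genes near 0 counts depend on the prior count, so exact intervals of summed counts were added. These intervals and the level of 3 counts (0.105 to 0.144 CPM in WT, 0.119 to 0.190 CPM in Trf2-/- mice) cover counting error only. After the fits, the same test was run on counts simulated from the means and dispersions of the main fit, with the outcome not given here. Same-numbered mice did not deviate together (r from -0.102 to -0.0313), and no 2 libraries of the same genotype agreed within sampling noise. Uniqueness was the share of 50-base exon windows with 1 match in NCBIM37 on either strand. Alternatives were another scaling, DESeq2 1.42.0, other filters, a stricter threshold, a replicate block and leaving out each mouse. The members and lists were chosen with earlier results of these data known. Full values are given for the germ cell isozymes, their somatic partners, genes called at 2-fold and the leading isozyme of each step. Hk1, Gm6981 and neighbouring genes not called at 2-fold were named after their values were seen.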

Additional observations from a re-analysis of the deposited data

How the results depend on the processing

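The 5 glycolysis genes called down were called down under DESeq2 scaling, DESeq2's own test, library size alone, every gene with at least 1 count, and without each mouse in turn. Requiring 10 counts in every mouse left 2, since Aldoart1, Aldoart2 and Gapdhs were no longer tested, with 436 genes called down and 61 up over all genes. An adjusted p of 0.01 left 2 glycolysis genes higher, and 32 genes called up and 481 higher over all. Scaling by library size alone gave 13 glycolysis genes higher and a median of 0.0736, with 158 genes called up and 4267 higher over all. Testing every gene with at least 1 count gave a median of 0.0695 for the glycolysis genes and 159 genes called up. Adding 1 count moved the Gapdhs to Gapdh difference to -3.44. Leaving out each mouse gave 5 to 7 glycolysis genes called down (Pgam2 and Eno4 were added without Trf2-/- mouse 2), 2 to 5 higher (2 without WT mouse 2) and a median from -0.0910 to 0.0269 (the ends without Trf2-/- mice 2 and 3). Over all genes it gave 53 to 177 called up (53 when WT mouse 1 was left out, 54 for Trf2-/- mouse 1, 177 for Trf2-/- mouse 3) and 780 to 1903 higher (780 without WT mouse 2, 787 without WT mouse 1). Of 476 values of single glycolysis genes under these alternatives, 456 stayed on the same side of the threshold, 13 came to pass it and 7 no longer did. None reversed while called, but the 456 include values that did not pass and changed sign. A replicate block, though the numbers did not pair the mice, gave 5 called down, 14 lower, 4 higher and a median of -0.0225, with 725 genes called down and 76 up over all. The within-number difference of the Pgk2 to Pgk1 ratio was -1.73 (exact sign-flip p = 0.25, the smallest value that 3 differences allow). Hk3, Eno1, Pfkl and others that did not pass the test changed sign under some alternatives. The cause of each of these shifts was not tested, other than the smaller set of genes under the stricter filter. Depth limits Gapdhs and Aldoart1, with at most 4 counts in any Trf2-/- mouse.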
